A study of Mus musculus with 45 samples.

Results

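The 10 genes described here are targets of the tumour suppressor p53 and inhibitors of the cell cycle: Cdkn1a, Cdkn1b, Cdkn1c, Cdkn2c, Mdm2, Ccng1, Phlda3, Trp53inp1, Bax and Sesn1. They were chosen by symbol, and all 10 were found among the 19432 genes listed in both deposited tables of expression in the mouse heart. Polyadenylated RNA was sequenced from 45 perfused and powdered whole hearts in 12 groups, each group defined by genotype, injury and time. The genotypes were wild type (WT) and a transgenic one, OE, in which cardiomyocytes transiently overexpressed the receptor tyrosine kinase ERBB2. Hearts had undergone either a sham procedure or the injury labelled MI, which the series title calls ischemic. Hearts were taken during overexpression (T1, labelled Dediff), 2 weeks after it (T2, labelled Intermediate) or 4 weeks after it (T3, labelled Rediff). WT sham, OE sham, WT MI and OE MI each held 4 libraries at T1. At T2 there were 4 WT sham, 4 OE sham, 3 WT MI and 3 OE MI libraries, and at T3 there were 4 WT sham, 3 OE sham, 4 WT MI and 4 OE MI libraries. The sources used here do not give the promoter that drives the transgene, any agent given to both genotypes, the age and sex of the mice or the interval between injury and harvest. T1 was 1 experiment of 16 libraries and the later times another of 29, and each was normalized on its own. The labels only number the libraries of a group, so a p-value here measures the spread between samples, which may be partly technical.

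As background, p53 is a transcription factor that accumulates when DNA is damaged or a cell is otherwise stressed, and it switches on genes that halt division, repair DNA or kill the cell. Mdm2 is both its target and the ubiquitin ligase that degrades it, so the pair forms a feedback loop. Inhibitors of cyclin-dependent kinases (CDKs) fall into the Cip/Kip family (Cdkn1a, Cdkn1b and Cdkn1c, encoding p21, p27 and p57), which binds several cyclin-CDK complexes, and the INK4 family (here Cdkn2c, encoding p18), which binds CDK4 and CDK6. Adult cardiomyocytes rarely divide, and these inhibitors are among the genes studied for keeping them out of the cycle.

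The libraries held 14199741 to 19015856 reads assigned to genes, of which 15.6% to 34% came from mitochondrial genes. At T1 this share was 15.6% to 18.2% in the OE libraries and 22.6% to 28.2% in the WT libraries, without overlap. Its part in the results below was not tested. Erbb2, the overexpressed gene, lay at 243 to 250.2 normalized counts in WT sham and at 769.7 to 2436 in OE sham at T1, and at 201 to 303 in WT MI and 769 to 2401 in OE MI, with no overlap between genotypes. In sham hearts it was 172 to 218 in WT and 271 to 308 in OE at T2, and 174 to 222 and 235 to 239.6 at T3. The OE sham hearts thus still lay above every WT sham heart at both later times. Markers of the labelled tissue were present: none of 8 cardiomyocyte markers was at 0 in any group. The summed level of these 8 genes was 952079 to 1105299 normalized counts in WT sham and 626023 to 756904 in OE sham at T1, whereas that of 8 fibroblast markers was 26203 to 29959 and 117976 to 145198. In OE against WT sham at T1, limma called 0 higher and 6 lower of the cardiomyocyte markers, 7 and 0 of the fibroblast markers, 6 and 0 of 8 macrophage markers, 0 and 2 of 8 endothelial markers and 2 and 2 of 8 mural cell markers. It called 0 and 5 of 5 erythroid markers tested and none of 7 lymphocyte or 4 neutrophil markers. Over all genes tested, 47.3% were called in this comparison. The endothelial count lay below that share and the mural count near it. The cardiomyocyte, fibroblast, macrophage and erythroid counts lay above it. The part of any of these markers in the results below was not tested. In such bulk samples, fewer cells of a type and less RNA per cell cannot be told apart.

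Promoter sequences from RefSeq (GRCm38.p6), running from 250 bases before to 50 bases after an annotated start, were matched by symbol for 8 of the 10 genes, with 11 windows in all. A motif scan for the p53 half-site consensus, whose letters read the same on both strands, found it in 5 of these 11 windows, against 2745 of 32851 promoters of the same length (8.36%). The genes were listed as p53 targets and cell cycle inhibitors, so a higher share among them is no independent result. Cdkn1a, Cdkn2c and Sesn1 each gave more than 1 window. The 3 promoters below are examples that all hold a match. In OE sham hearts at T1 Bax rose, Ccng1 fell, and Cdkn1a lay above every WT heart without passing the test. Phlda3, which had the largest called rise there, held no match in its window, so the examples do not tie a match to a change. Capitals mark each match to the half-site.
Cdkn1a, chr17:29090729-29091028, plus strand: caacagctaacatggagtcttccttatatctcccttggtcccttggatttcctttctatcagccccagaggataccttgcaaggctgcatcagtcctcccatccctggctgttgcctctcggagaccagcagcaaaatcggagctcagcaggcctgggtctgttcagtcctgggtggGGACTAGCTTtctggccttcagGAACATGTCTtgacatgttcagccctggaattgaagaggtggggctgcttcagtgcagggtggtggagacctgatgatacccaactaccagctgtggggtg
Bax, chr7:45466849-45467148, minus strand: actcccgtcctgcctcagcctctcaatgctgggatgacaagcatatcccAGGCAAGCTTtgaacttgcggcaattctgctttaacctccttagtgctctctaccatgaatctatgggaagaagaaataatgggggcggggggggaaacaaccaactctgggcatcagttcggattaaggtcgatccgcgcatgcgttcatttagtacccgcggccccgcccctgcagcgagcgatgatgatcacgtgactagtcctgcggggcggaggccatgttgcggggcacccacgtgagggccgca
Ccng1, chr11:40755237-40755536, minus strand: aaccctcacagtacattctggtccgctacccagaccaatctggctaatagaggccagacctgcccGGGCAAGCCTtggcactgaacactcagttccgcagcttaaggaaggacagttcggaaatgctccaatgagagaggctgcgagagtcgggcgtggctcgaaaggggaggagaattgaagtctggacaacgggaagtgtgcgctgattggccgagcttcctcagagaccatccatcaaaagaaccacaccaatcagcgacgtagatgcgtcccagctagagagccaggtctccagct
In the upstream Cdkn1a window, 2 matches began 73 and 51 bases before the start site, close enough to count as a full site (a pair with a spacer of at most 13 bases), which 24 of 32851 promoters held (0.073%). Bax and Ccng1 each had 1 match, 201 and 185 bases before the start. Mdm2 and the second start of Sesn1 also held 1 match each, at 186 and 173 bases before the start, and the windows of Cdkn1b, Cdkn2c and Phlda3 held none. A match is only a run of letters in these windows. Cdkn1c and Trp53inp1 have no promoter shown.

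Levels were compared between genes as normalized counts per kilobase of exon. In WT sham hearts at T1, Ccng1, which encodes cyclin G1, a p53 target that recruits a phosphatase to Mdm2, was the highest at 5581 ± 380.1 per kilobase (SD, n = 4). Sesn1, which encodes sestrin 1, a stress protein that restrains mTORC1, followed at 692 ± 54.6. Mdm2 (233 ± 10.5), Cdkn1b (216 ± 8.9), Cdkn1a (207 ± 127), Cdkn1c (191 ± 28) and Bax (175 ± 11.6) lay next to each other, and the range of Cdkn1a, from 96.0 to 318, covered all 4 of these neighbours. Phlda3 (139 ± 8.6), which encodes a repressor of Akt, stood below Bax, and Cdkn2c (68.2 ± 12.9) and Trp53inp1 (45.4 ± 5.2), a stress-induced nuclear protein, were lowest. Ccng1 ranked 1 in all 12 groups, Sesn1 2 or 3, and Cdkn2c and Trp53inp1 9 or 10. The rank of Cdkn1a ran from 2 to 8, and in OE sham hearts at T1 it ranked 2 at 553 ± 21.8 per kilobase.

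During overexpression in uninjured hearts, Phlda3 and Bax rose and Ccng1, Cdkn1c and Sesn1 fell. Of the 10 genes, 2 were called higher and 3 lower, beside 47.3% of the 15375 genes tested, so the count of 5 called lay near the background. A call is a limma adjusted p under 0.05 over all genes tested, and each change is a log2 fold change with its SE, computed after adding 1 to the normalized counts, so that changes of genes with low counts are understated. The median change of the 10 was 0.03, beside 0.01 for all genes tested. Groups did not overlap for 6 of the 10 genes, beside 46.8% of all genes.

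Phlda3 was at 226, 206, 205 and 231 normalized counts in WT sham and at 707, 639, 401 and 609 in OE sham. Every OE heart lay above every WT heart, and the lowest OE value, 401, came from replicate 3. The change was 1.41 ± 0.19 (limma adjusted p = 2.08e-05), a 2.65-fold higher level. Bax, the pore-forming protein that opens the outer mitochondrial membrane in apoptosis, was at 264, 269, 303 and 268 in WT and at 445, 455, 448 and 364 in OE. Its groups did not overlap either, and both held a heart set apart from the other 3, replicate 3 in WT and replicate 4 in OE. The change of Bax was 0.63 ± 0.09 (limma adjusted p = 3.92e-05), or 1.54-fold. The counts of Bax could include reads of Gm45808, a gene annotated on the same strand that overlaps it.

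Ccng1 was at 20458, 20306, 17616 and 20019 normalized counts in WT sham and at 8107, 8458, 8953 and 8883 in OE sham. The highest OE heart was thus far below the lowest WT heart, and the 4 OE hearts lay close together. It fell by 1.19 on the log2 scale (SE 0.11, limma adjusted p = 4.95e-07), to 0.439 of the WT level. Cdkn1c, the Cip/Kip inhibitor p57, was at 382, 464, 389.9 and 324 in WT and at 182, 153, 184 and 232 in OE, again without overlap. It fell by 1.05 (SE 0.19, limma adjusted p = 0.00026). Sesn1 was at 2815, 2873, 2899 and 2433 in WT and at 1615, 1638, 1684 and 1916 in OE. Its groups did not overlap, and it fell by 0.68 (SE 0.23, limma adjusted p = 0.0225). The Sesn1 call was lost without OE sham T1 replicate 1 (limma adjusted p = 0.053), without WT sham T1 replicate 2 (0.0502) and when libraries were scaled by their totals (a change of -0.38, 0.135). No source used here gives strandedness, and Cdkn1c overlaps the antisense gene Gm44732.

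Cdkn1a, the p21 inhibitor and best-known arrest target of p53, split the WT hearts: replicates 1 and 2 were at 341 and 348 normalized counts and replicates 3 and 4 both at 1129. The 4 OE hearts were at 1965, 2024, 1854 and 2013, above all WT hearts and close to each other. The change was the largest of the 10 at 1.65 ± 0.67, but it did not pass (limma adjusted p = 0.0554). Its SE comes from a fit of every T1 group, the injured ones included, and not from the sham hearts alone. The change passed without WT sham T1 replicate 3 (0.043) or replicate 4 (0.0417), with a minimum value of 50 (0.0462), with library totals (0.0213) and with only the compared groups in the fit (0.0205). The authors' deposited table gives a log2 fold change of 1.41 with an adjusted p of 0.0805. Cdkn1a overlaps AC167363.2 on the opposite strand.

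The other 4 genes did not pass in sham hearts at T1. Mdm2 was at 1136 to 1236 normalized counts in WT and 970.3 to 1147 in OE, a change of -0.13 ± 0.08 with a 95% interval of -0.31 to 0.04. Cdkn1b, the p27 inhibitor, was at 928 to 1014 and 764 to 1049, and its change was -0.21 ± 0.11 (-0.44 to 0.03); without OE sham T1 replicate 4, its highest OE heart, it was called lower (-0.31, limma adjusted p = 0.0208). Cdkn2c was at 139 to 223 and 172 to 242, with a change of 0.20 ± 0.15, and Trp53inp1 at 258 to 338 and 309 to 417, with a change of 0.24 ± 0.28. Scaling by library totals moved the median of all genes tested from 0.01 to 0.31 in this comparison (7166 called higher and 1782 lower, beside 3692 and 3579), and on that scale Mdm2 was at 0.17 and Cdkn1b at 0.10, the opposite sign, and Cdkn2c was called higher (0.50, limma adjusted p = 0.0246). No called value of the 10 genes turned its direction under any setting run, in any comparison.

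**Figure D1:**
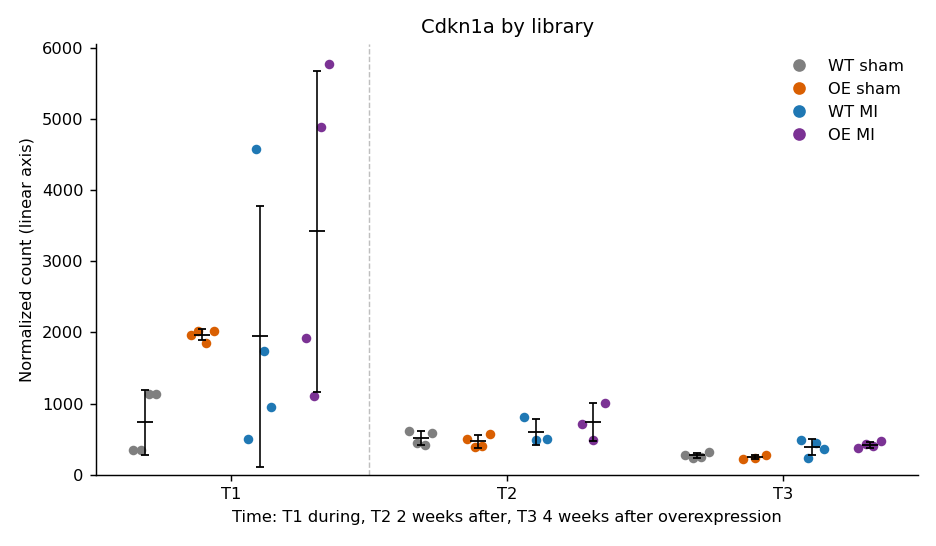
Normalized count of Cdkn1a (linear y axis) in each of the 45 libraries, by time on the x axis and group by colour; black bars give the mean and SD of a group, and the dashed line parts the separately normalized experiments. At T1 the OE sham hearts sit between 1854 and 2024, above the WT sham hearts at 341 to 1129, and the MI hearts range from 509 to 5767.

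After MI at T1 the same comparison of OE with WT gave 2 higher and 2 lower of the 10 genes, beside 29.9% of genes tested. Phlda3 was at 263, 223, 241 and 382 in WT MI and at 664, 529, 450.5 and 427 in OE MI, a change of 0.91 ± 0.19 without overlap (limma adjusted p = 0.00187). Bax was at 295, 309, 313 and 365 against 401, 364, 424 and 424. Its highest WT heart just passed its lowest OE heart, and it rose by 0.33 ± 0.09 (limma adjusted p = 0.0112). Ccng1 was at 18052, 13089.6, 16401 and 13894 in WT MI and at 8552, 9979, 7299 and 8204 in OE MI, and fell by 0.85 (SE 0.11, limma adjusted p = 3.24e-05). Cdkn1c was at 495, 366, 269 and 339 against 265, 213, 187 and 158, and fell by 0.82 (SE 0.19, limma adjusted p = 0.00346). Groups did not overlap for 3 of the 10 genes, beside 25.4% of all genes.

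Injured hearts at T1 varied most in Cdkn1a, whose coefficient of variation in WT MI was 94.1%. It was at 509, 4580.3, 1737 and 951 in WT MI and at 1919.8, 1113, 4888 and 5767 in OE MI. The groups overlapped, and the change of 0.99 ± 0.67 did not pass (limma adjusted p = 0.295). WT MI replicate 2, the highest WT heart for Cdkn1a, was also highest for Trp53inp1 (1072, with the other 3 at 341 to 443) and for Sesn1 (4756, with the others at 1651 to 3322). Without it, Trp53inp1 was called higher in OE MI, at 438 to 705, with a change of 0.56 (limma adjusted p = 0.016), beside 0.19 ± 0.28 with it. Without WT MI replicate 4, the lowest for Sesn1, that gene was called lower, with a change of -0.68 (limma adjusted p = 0.00217), beside -0.39 ± 0.23 with it. With library totals Cdkn2c (0.64, limma adjusted p = 0.00785) and Mdm2 (0.34, 0.00186) were called higher in OE MI, where the median over all genes moved from 0.01 to 0.28 (6289 called higher and 1137 lower, beside 2256 and 2344). Summed fibroblast markers ranged from 52845 to 99813 over the WT MI hearts and from 111864 to 158213 over the OE MI hearts, and their part was not tested.

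MI was set against sham at T1 within each genotype. In WT hearts none of the 10 was called by limma in MI against sham, beside 5.80% of genes tested. Counts by unadjusted p, DESeq2 or edgeR have no share of all genes beside them, here and below. They thus cannot be set against a background. Of the 10, 4 had an unadjusted p under 0.05, and DESeq2 on the recovered reads called 2. Those were Ccng1 (-0.35, DESeq2 adjusted p = 0.0203) and Trp53inp1 (0.92, DESeq2 adjusted p = 0.0233), which limma gave as -0.36 ± 0.11 (adjusted p = 0.056) and 0.75 ± 0.28 (adjusted p = 0.114). Without WT MI T1 replicate 2, at 1072, the limma change of Trp53inp1 was 0.38 (adjusted p = 0.184). Ccng1 was also called by limma without WT MI T1 replicate 1 (adjusted p = 0.0161). The WT groups did not overlap for 3 of the 10 genes, beside 14.6% of all genes, and the OE groups for 1, beside 5.01%. In OE hearts none of the 10 was called by limma, beside 0.00650% of genes tested, 1 had an unadjusted p under 0.05, and DESeq2 and edgeR called none of the 10. The interaction of OE and MI called none by limma, beside 0.0911%, and DESeq2 and edgeR none either; 2 had an unadjusted p under 0.05. The differences between sham and injured hearts in the OE effect of Phlda3 (-0.50 ± 0.27) and Bax (-0.29 ± 0.13) therefore did not pass.

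**Figure D2:**
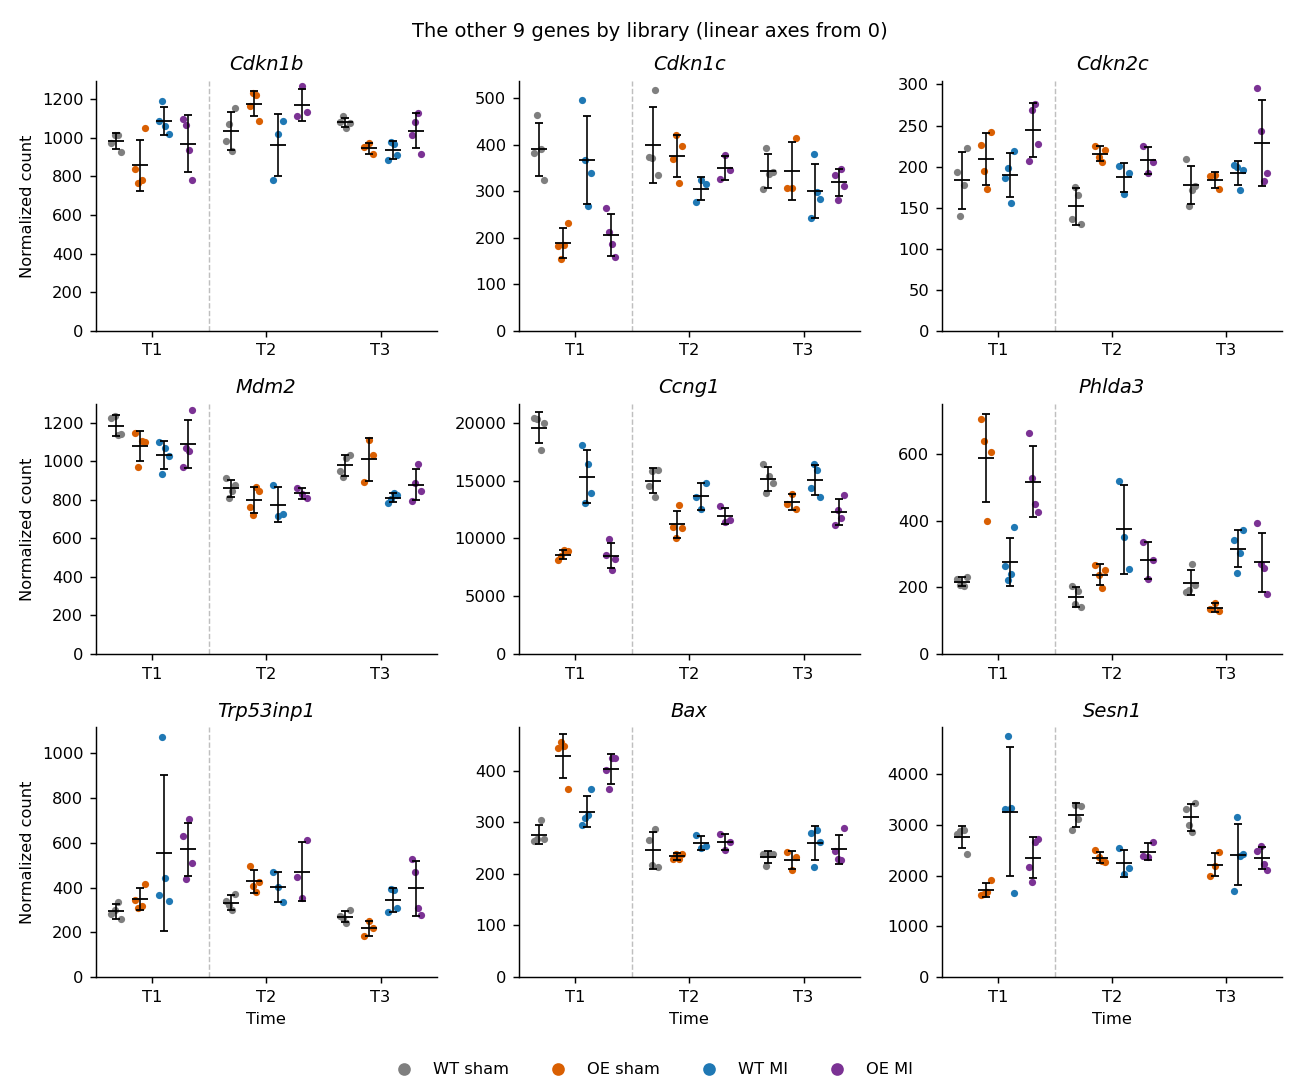
Normalized counts of the other 9 genes in each library, 1 panel a gene with linear y axes from 0, by time and by group colour; black bars give the mean and SD, and the dashed line parts the separately normalized experiments. At T1 the OE hearts lie below WT hearts in Ccng1 and Cdkn1c and above them in Phlda3, and WT MI replicate 2 stands alone in Trp53inp1 at 1072.

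Other genes of the p53 pathway and the cycle were described from lists, for the same comparison of sham hearts at T1 and against the same 47.3%. Of 12 genes for p53 and its regulators, 1 rose and 1 fell: Trp53 itself, at 0.44 ± 0.11, and the damage kinase Atm, at -0.36 ± 0.13. Of 16 other p53 targets of arrest and repair, 9 rose and 2 fell, with a median of 0.56. The 3 with the smallest p were Zmat3, an RNA-binding zinc finger protein (0.63 ± 0.08), and the spindle-associated genes Psrc1 (2.07 ± 0.29) and Gtse1 (1.88 ± 0.27). Psrc1 and Gtse1 are also expressed in dividing cells. Of 12 other p53 targets of cell death, 6 rose and 2 fell, with a median of 0.30. Those that rose included the receptor genes Eda2r (1.12 ± 0.17) and Tnfrsf10b (1.0 ± 0.17) and the apoptosome gene Apaf1 (0.57 ± 0.09). Of 11 other cell cycle inhibitors tested, 2 rose and 1 fell: the INK4 gene Cdkn2b (1.59 ± 0.40), the antiproliferative gene Btg1 (0.37 ± 0.14) and the pocket protein gene Rbl2 (-0.60 ± 0.15). Of 12 cyclins and CDKs, 11 rose, none fell and the median was 1.15. They included the D-type cyclins Ccnd2 (1.70 ± 0.14) and Ccnd1 (1.35 ± 0.16) and the S-phase cyclin Ccna2 (2.20 ± 0.28).

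With MI at T1 the same lists counted fewer calls, beside 29.9% of all genes. Of the p53 regulators 1 of 12 rose, Ppp1r13l (0.22 ± 0.08), an inhibitor of p53. Arrest and repair targets gave 4 higher and 1 lower of 16, with the spindle protein gene Ckap2 (2.06 ± 0.27), Zmat3 (0.56 ± 0.08) and Psrc1 (1.75 ± 0.29). Cell death targets gave 3 higher and 1 lower of 12, with Apaf1 (0.45 ± 0.09), Tnfrsf10b (0.84 ± 0.17) and Ei24 (-0.34 ± 0.06). Other inhibitors gave Rbl1 higher (0.63 ± 0.20) and Rbl2 lower (-0.47 ± 0.15) of 11. Cyclins and CDKs gave 10 higher and none lower of 12, with Ccnd2 (1.89 ± 0.14), Ccnd3 (0.47 ± 0.07) and Ccna2 (1.72 ± 0.28). Among WT hearts at T1, MI against sham gave Ppp1r13l (-0.32 ± 0.08) and Tigar (-0.42 ± 0.08), a regulator of glycolysis, lower. In the same comparison, beside 5.80% of all genes, 3 of 12 cell death targets were higher, namely Pmaip1 (1.67 ± 0.35) and Eda2r (0.63 ± 0.17), and the autophagy gene Dram1 (0.98 ± 0.21). No cyclin, CDK or other inhibitor was called there by limma.

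At 2 weeks after overexpression, OE sham hearts differed from WT sham hearts in 1 gene that was higher and 2 that were lower, beside 25.4% of the 15533 genes tested. Cdkn2c was at 136, 176, 166 and 129 normalized counts in WT and at 225, 212, 205 and 220.5 in OE, without overlap. It rose by 0.52 ± 0.12 (limma adjusted p = 0.00268). Ccng1 was at 14575, 15821, 13627 and 15891 in WT and at 11016, 10006, 12885 and 10931 in OE, and fell by 0.42 (SE 0.08, limma adjusted p = 0.000349). Sesn1 was at 2905, 3384, 3109 and 3374 against 2501, 2362, 2289 and 2259, and fell by 0.44 (SE 0.12, limma adjusted p = 0.00674). None of the Ccng1 or Sesn1 groups overlapped, though Sesn1 was not called with library totals (-0.23, 0.114). Phlda3 was not called, at 139.7 to 203 against 197 to 269 (0.49 ± 0.21, limma adjusted p = 0.0887). Nor was Cdkn1b, at 931 to 1152 and 1089 to 1233 (0.19 ± 0.08, 0.0888), unless WT sham T2 replicate 4 was left out (0.0392). Cdkn1a was at 423 to 616 and 387 to 571, and Bax at 212 to 286 and 228 to 239, both with overlapping groups. Overlap was absent for 4 of the 10 genes, beside 25.6% of all genes.

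Scaling by library totals moved the median of all genes from 0.02 to 0.22 in this comparison (5184 called higher and 758 lower, beside 1834 and 2109) and called 5 of the 10 genes. With totals the calls were Cdkn1b (0.39), Cdkn2c (0.72), Phlda3 (0.70) and Trp53inp1 (0.56) higher and Ccng1 (-0.22) lower. Fitting only the compared groups also called 5, adding Phlda3 (0.0231) and Trp53inp1 (0.0234) to the 3 above. The share of all genes called is not given for that fit, nor below for fits without 1 library. Such counts are thus not read as results about the 10 genes. After MI at T2 limma called none of the 10 in OE against WT, beside 1.56% of genes tested; 1 had an unadjusted p under 0.05, and DESeq2 and edgeR called none. That gene was Cdkn1b, at 782, 1020.0 and 1088 in WT MI and 1114, 1267 and 1133 in OE MI, a change of 0.29 ± 0.09 without overlap (limma adjusted p = 0.128, or 0.0477 without WT MI T2 replicate 4 and 0.0254 with library totals). It was 1 of 2 genes without overlap there, beside 19.0% of all genes.

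In WT hearts at T2, Phlda3 rose and Sesn1 fell in MI against sham, beside 21.8% of genes tested. Phlda3 was at 203, 149.6, 189 and 139.7 in WT sham and at 519, 350.4 and 255 in WT MI, a rise of 1.09 ± 0.23 without overlap (limma adjusted p = 0.00137). Sesn1 was at 2905 to 3384 in WT sham and at 2546, 2037 and 2146 in WT MI. It fell by 0.51 (SE 0.13, limma adjusted p = 0.0048), and the groups did not overlap. Cdkn1c, at 334 to 518 and 278 to 324, was called lower only with DESeq2 (-0.39, DESeq2 adjusted p = 0.0454), with a replicate block (-0.40, limma adjusted p = 0.0359) or without WT sham T2 replicate 4 (-0.45, 0.0345). With library totals Cdkn2c was called higher (0.42, 0.0298), and all genes gave 2693 higher and 554 lower calls, beside 1766 and 1613. In OE hearts at T2 limma called none of the 10 for MI against sham, beside 0.0258% of genes tested, 1 had an unadjusted p under 0.05, and DESeq2 and edgeR called none. Groups did not overlap for 3 of the 10 in WT hearts, beside 26.5% of all genes, and for 1 in OE hearts, beside 11.1%. In OE hearts Phlda3 was at 197 to 269 in sham and 226 to 337 in MI (0.23 ± 0.23), and Sesn1 at 2259 to 2501 and 2368 to 2656 (0.07 ± 0.13). The interaction, which tests whether MI acted differently in OE and WT, was 0.58 ± 0.18 for Sesn1 (limma adjusted p = 0.0547) and -0.86 ± 0.32 for Phlda3 (0.116). None of the 10 was called in it by limma or edgeR, beside 4.94% of genes tested by limma, with 2 at an unadjusted p under 0.05. Sesn1 was called with DESeq2 (adjusted p = 0.0242), with a minimum value of 50 (limma adjusted p = 0.0463), with only the groups of T2 (0.0148), without WT MI T2 replicate 2 (0.0462) and without WT sham T2 replicate 1 (0.045). Without WT MI T2 replicate 4 Phlda3 was called (0.0359). Fibroblast markers summed to 20547 to 22184 in WT sham, 45752 to 62515 in WT MI, 39615 to 40717 in OE sham and 38721 to 52119 in OE MI, and their part in these values was not tested.

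Of the listed pathway genes in WT hearts at T2, Trp53 was higher in MI (0.33 ± 0.09), and arrest and repair targets gave 3 higher and 1 lower of 16, beside 21.8% of all genes: Zmat3 (0.48 ± 0.11) and Psrc1 (1.24 ± 0.33) were higher and Gadd45a (-0.48 ± 0.16) was lower. Cell death targets gave 2 higher and 1 lower of 12, with Dram1 (1.06 ± 0.21), Eda2r (0.65 ± 0.19) and the death receptor Fas (-0.49 ± 0.15). Other inhibitors gave Cdkn2b (1.37 ± 0.33), the CDK1-inhibiting kinase Pkmyt1 (0.86 ± 0.23) and Btg1 (0.52 ± 0.15) higher of 12. Of 12 cyclins and CDKs, Ccnd2 (0.63 ± 0.17) and Cdk6 (0.46 ± 0.15) were higher.

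**Figure D3:**
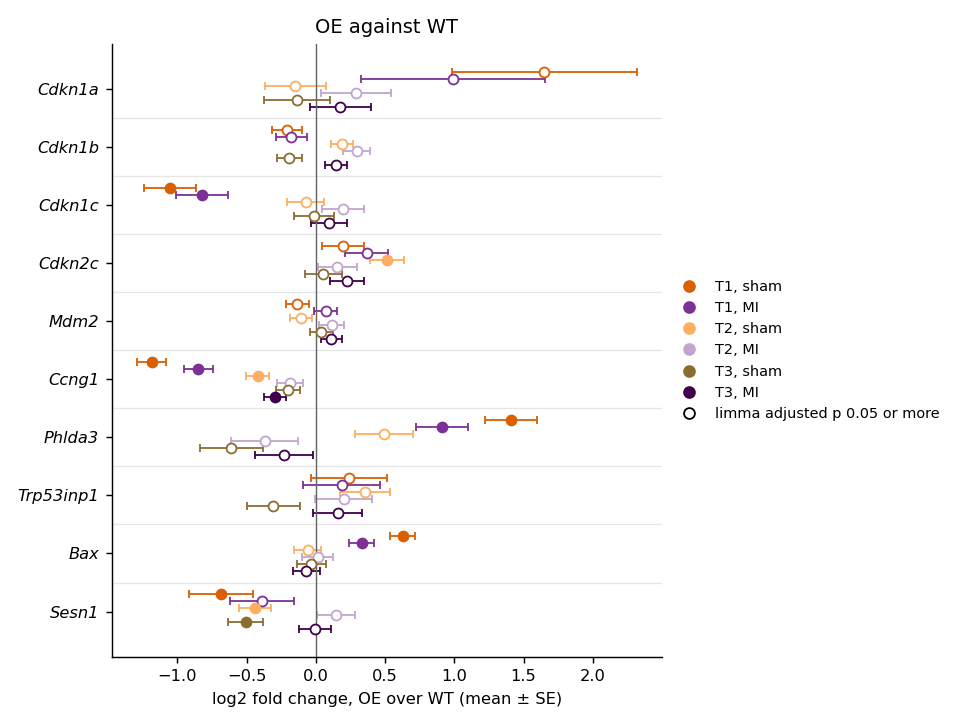
Change of each of the 10 genes in OE against WT hearts (x axis: log2 fold change, points with SE bars), by time and injury in colour; filled points passed limma at an adjusted p under 0.05 over all genes tested. Phlda3 runs from 1.41 in sham hearts at T1 to -0.61 at T3, while Ccng1 lies below 0 in all 6 comparisons.

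At 4 weeks after overexpression 1 of the 10 genes still differed in sham hearts, beside 13.1% of genes tested (6.57% lower). Sesn1 was at 3315, 2989.5, 2861 and 3422 in WT and at 1999, 2188 and 2461 in OE, without overlap, and fell by 0.51 (SE 0.13, limma adjusted p = 0.00899). The call was lost without OE sham T3 replicate 1 (0.0631). Phlda3 was at 186, 192, 271 and 208 in WT and at 134, 154 and 129 in OE. All OE hearts were now below all WT hearts, but the change of -0.61 ± 0.23 did not pass (limma adjusted p = 0.0749, or 0.0141 with only the compared groups). Cdkn1a was at 242 to 325 and 228 to 277 (-0.14 ± 0.24), and Bax at 216 to 239 and 208 to 243 (-0.03 ± 0.10). Fibroblast markers summed to 21358 to 23639 in WT sham and 19348 to 21286 in OE sham at this time. Groups did not overlap for 4 of the 10 genes, beside 25.6% of all genes.

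The pathway lists were also counted for OE against WT in sham hearts after overexpression; the genes named from them here were chosen after their values were seen. At T2, beside 25.4% of all genes called, arrest and repair targets gave 4 higher and 1 lower of 16, among them Plk2 (0.50 ± 0.10), and cell death targets 1 higher and 4 lower of 12, with Eda2r higher (0.77 ± 0.17) and Fas lower (-0.57 ± 0.14). Other inhibitors gave 3 higher of 12, Cdkn2b (0.995 ± 0.305), Btg1 (0.45 ± 0.14) and Ccng2 (0.30 ± 0.10), a relative of Ccng1. Of 12 cyclins and CDKs 2 were higher, Ccnd2 (1.0 ± 0.16) and Ccne1 (0.66 ± 0.24), and of 12 p53 regulators Mdm4 was higher (0.24 ± 0.08) and Ppp1r13l lower (-0.29 ± 0.09). At T3, beside 13.1% of all genes called, Ccng2 (-0.67 ± 0.11), Wee1, a kinase that restrains CDK1 (-0.75 ± 0.16), Fas (-0.57 ± 0.15), Dram1 (-0.67 ± 0.21) and Cdk6 (-0.60 ± 0.15) were lower. Atr, a damage kinase (0.37 ± 0.10), and Zmat3 (0.33 ± 0.11) were higher at T3, and no other gene of these lists was called there by limma.

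After MI at T3, OE against WT gave 1 lower gene, Ccng1, beside 3.28% of genes tested (2.09% lower). It was at 14377, 16410.1, 15937 and 13602 in WT MI and at 11134, 12463, 11777 and 13762 in OE MI, where 1 OE heart passed the lowest WT heart. It fell by 0.30 (SE 0.08, limma adjusted p = 0.0399), and the call was lost when any 1 of 6 of the 8 libraries was left out (0.0572 to 0.127), namely OE MI replicates 1, 2 and 3 and WT MI replicates 1, 2 and 3. It was also lost with library totals (0.0727) and with only the compared groups (0.133). Every one of the 10 genes overlapped between these groups, where 9.29% of all genes did not.

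Mdm2 and Sesn1 fell in MI against sham at T3 in WT hearts, beside 14.9% of genes tested (6.67% lower). The count turned from 2 lower to 3 higher and 0 lower with library totals, where Bax (0.33, limma adjusted p = 0.0346), Phlda3 (0.74, 0.0263) and Trp53inp1 (0.53, 0.0377) were called. That scaling gave all genes 3615 higher and 195 lower calls, beside 1281 and 1036, and a median of 0.18. Mdm2 was at 953, 918, 1019 and 1034 in WT sham and at 785, 806, 834 and 824 in WT MI. The groups did not overlap, and it fell by 0.27 (SE 0.08, limma adjusted p = 0.0178). Sesn1 was at 2861 to 3422 in WT sham and at 1694, 3147, 2383 and 2421 in WT MI, where replicate 2 reached the sham range, and fell by 0.41 (SE 0.12, limma adjusted p = 0.0183). Both calls were lost with library totals (-0.09, 0.489 and -0.23, 0.147), and that of Sesn1 with only the compared groups (0.143). Both were also lost without WT MI replicate 1 (0.0566 for Mdm2 and 0.0994 for Sesn1) and without WT sham replicate 4 (0.0639 and 0.0659). Without WT MI replicate 2, 4 of the 10 genes were called, Cdkn1a (0.0282) and Phlda3 (0.038) in addition. With all libraries, 2 of the 10 had groups without overlap, beside 18.7% of all genes.

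In OE hearts at T3 the injured group was higher in 3 of the 10 genes and lower in none, beside 19.1% of genes tested (11.1% higher). Cdkn1a was at 228, 232 and 277 in OE sham and at 369.6, 428, 405 and 480.4 in OE MI. It rose by 0.77 ± 0.24 without overlap (limma adjusted p = 0.0264), but not when OE MI replicate 2 (0.0622) or 4 (0.0509) or OE sham replicate 1 (0.0911) or 2 (0.0718) was left out. Phlda3 was at 134, 154 and 129 against 394, 272, 259.7 and 179.6, a rise of 0.94 ± 0.23 (limma adjusted p = 0.00663). Trp53inp1 was at 184, 249.6 and 222 against 529.9, 472, 307 and 279, a rise of 0.82 ± 0.19 (limma adjusted p = 0.0055, or 0.0671 with only the compared groups). Neither Phlda3 nor Trp53inp1 overlapped between the groups, so that 3 of the 10 had no overlap, beside 26.9% of all genes. With library totals 5 of the 10 were called, Cdkn1b (0.29) and Cdkn2c (0.45) in addition, and the median over all genes moved from -0.01 to 0.15 (3054 called higher and 167 lower, beside 1722 and 1241). Without OE MI replicate 3, 5 were also called, with Cdkn2c (0.0451) and Mdm2 (0.0333) in addition. Without OE sham replicate 1 Mdm2 was called (0.0363). The same contrast in WT hearts gave 0.46 ± 0.22 for Cdkn1a, 0.56 ± 0.21 for Phlda3 and 0.35 ± 0.18 for Trp53inp1. The interaction at T3 called none of the 10 by limma, beside 0.00644% of genes tested, so these changes in OE and WT hearts were not shown to differ; 2 of the 10 had an unadjusted p under 0.05, and DESeq2 and edgeR called none. Fibroblast markers summed to 28773 to 49095 and macrophage markers to 5868 to 8738 in OE MI, beside 19348 to 21286 and 3843 to 4461 in OE sham, and their part was not tested.

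Among the listed pathway genes at T3, MI against sham in WT hearts gave Trp53 (0.50 ± 0.09), Psrc1 (1.23 ± 0.30), Plk2, a polo-like kinase (0.31 ± 0.10), and Cdkn2b (0.90 ± 0.31) higher, beside 14.9% of all genes called. No cell death target and no cyclin or CDK was called there by limma. In OE hearts, beside 19.1% of all genes called, the same contrast counted 2 higher and none lower of 16 arrest and repair targets, 3 higher and 1 lower of 12 cell death targets, 3 higher and none lower of 12 other inhibitors, and 2 higher and 1 lower of 12 cyclins and CDKs. The p53 regulators counted 1 higher and 1 lower of 12.

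**Figure D4:**
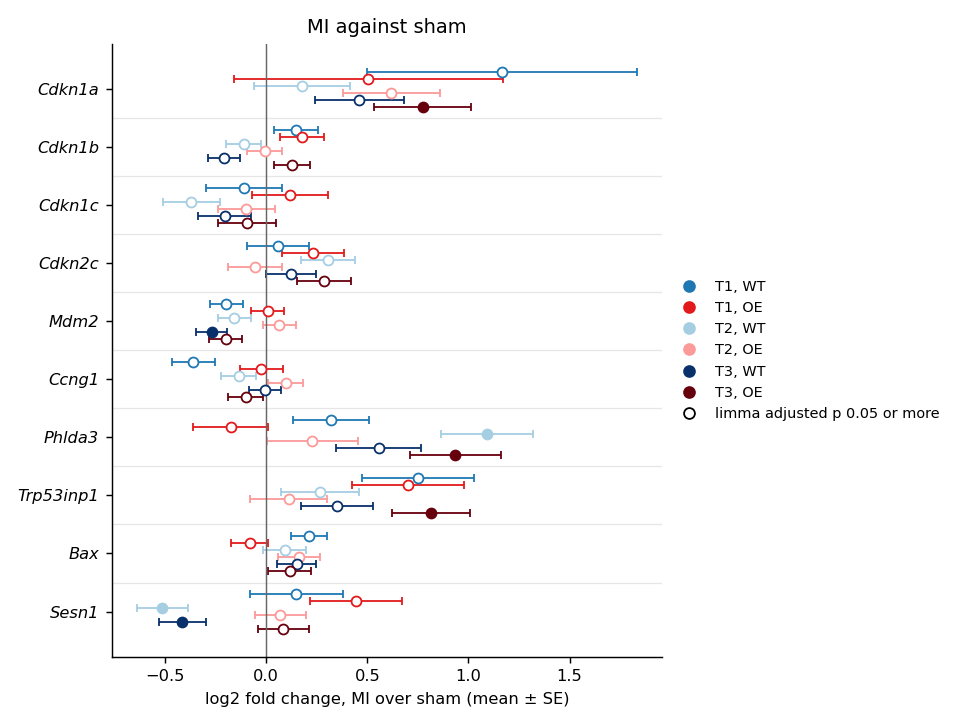
Change of each of the 10 genes in MI against sham hearts (x axis: log2 fold change, points with SE bars), by time and genotype in colour; filled points passed limma at an adjusted p under 0.05 over all genes tested. Filled points appear for WT hearts at T2 (Phlda3, Sesn1) and T3 (Mdm2, Sesn1) and for OE hearts at T3 (Cdkn1a, Phlda3, Trp53inp1).

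The change in the OE effect between times was tested directly. Between T3 and T2, within 1 experiment, it differed in sham hearts for 2 of the 10 genes, beside 12.3% of genes tested (6.11% lower). For Phlda3 the effect moved from 0.49 to -0.61, a difference of -1.10 ± 0.31 (limma adjusted p = 0.0218, or 0.0542 and 0.0564 without OE sham T3 replicate 1 or 3). For Cdkn1b it moved from 0.19 to -0.19, a difference of -0.38 ± 0.12 (limma adjusted p = 0.0368). That call was lost without any 1 of 9 of the 15 libraries (0.0518 to 0.087): OE sham T2 replicates 1, 2 and 3, OE sham T3 replicates 1 and 3, WT sham T2 replicates 1 and 3, and WT sham T3 replicates 2 and 4. In injured hearts limma called none of the 10, beside 0% of genes tested; none of the 10 had an unadjusted p under 0.05, and DESeq2 and edgeR called none of the 10.

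Between T1 and the later times the OE effects were compared after both experiments were scaled jointly, so a difference between times and one between experiments cannot be told apart. In sham hearts 6 of the 10 effects differed between T2 and T1 (3 higher and 3 lower at T2), beside 22.7% of genes tested, and 5 between T3 and T1 (2 and 3), beside 36.8%. Ccng1 (0.76 ± 0.13 at T2 and 0.97 ± 0.13 at T3) and Cdkn1c (0.97 ± 0.22 and 1.03 ± 0.23) had less negative effects later. Phlda3 (-0.92 ± 0.29 and -2.03 ± 0.31) and Bax (-0.69 ± 0.13 and -0.67 ± 0.14) had lower effects later. The Cdkn1a effect differed by -1.81 ± 0.65 (limma adjusted p = 0.0425) and -1.80 ± 0.68 (0.036). Its calls were lost with edgeR on the reads (0.0829 both times). The T2 call was lost without any 1 of 11 libraries (0.0545 to 0.106): OE sham T1 replicates 1 to 4, OE sham T2 replicates 1 to 3, WT sham T1 replicates 1 and 2, and WT sham T2 replicates 1 and 4. The T3 call was lost without any 1 of 8 (0.0501 to 0.0894), namely replicates 1 and 2 of OE sham T1, WT sham T1 and OE sham T3, and WT sham T3 replicates 1 and 4. Cdkn1b at T2 (0.39 ± 0.13, limma adjusted p = 0.0298) lost its call with library totals (0.123) and without any 1 of 9 libraries (0.0505 to 0.0757): OE sham T1 replicates 1 to 3, OE sham T2 replicates 2 and 3, WT sham T1 replicates 2 and 3, and WT sham T2 replicates 1 and 3. Phlda3 at T2 lost it without OE sham T1 replicate 1 (0.0536).

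In injured hearts 4 effects differed between T2 and T1, beside 18.9% of genes tested, and 4 between T3 and T1, beside 20.5%. Cdkn1c (1.03 ± 0.24 at T2 and 0.92 ± 0.22 at T3), Ccng1 (0.66 ± 0.14 and 0.55 ± 0.13) and Phlda3 (-1.28 ± 0.32 and -1.14 ± 0.29) were called at both times. Cdkn1b was called at T2 (0.47 ± 0.14, limma adjusted p = 0.017), and not without OE MI T1 replicate 4 (0.0501), OE MI T2 replicate 3 (0.067) or WT MI T2 replicate 2 (0.112), nor with library totals (0.192). Without WT MI T1 replicate 4 the Sesn1 effect was also called, at T2 (0.83, limma adjusted p = 0.00255) and T3 (0.68, 0.00738). At T3 Cdkn1b was called without OE MI T1 replicate 1 (0.0408) or 2 (0.0426) or OE MI T3 replicate 4 (0.0496). Bax was called at T3 (-0.40 ± 0.13, limma adjusted p = 0.029), but not without any 1 of 8 of the 16 libraries (0.0513 to 0.0722), namely OE MI T1 replicates 3 and 4, OE MI T3 replicates 2 and 3, WT MI T1 replicates 1 and 2, and WT MI T3 replicates 1 and 3.

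Time itself, T3 against T2, was compared within the second experiment after the values were seen. In OE sham hearts 6 of the 10 genes were called, 2 higher and 4 lower, beside 30.9% of genes tested. Trp53inp1 was at 498, 409.5, 379 and 425 at T2 and at 184, 249.6 and 222 at T3, and fell by 0.97 (SE 0.19, limma adjusted p = 0.000602). Cdkn1a was at 505, 387, 409.6 and 571 at T2 and at 228, 232 and 277 at T3, and fell by 0.92 (SE 0.24, limma adjusted p = 0.00559). Phlda3 fell by 0.77 (SE 0.23, limma adjusted p = 0.0122) and Cdkn1b fell by 0.31 (SE 0.09, 0.00808). None of these 4 genes overlapped between the times, and 6 of the 10 did not, beside 42.1% of all genes. Mdm2, at 724 to 868 at T2 and 891 to 1110.2 at T3, rose by 0.34 ± 0.08 (limma adjusted p = 0.00309), and Ccng1 by 0.23 ± 0.09 (0.0417), and both calls were lost with library totals (0.209 and 0.582). That scaling called 0 higher and 5 lower of the 10, with Cdkn2c (-0.41, limma adjusted p = 0.0263) in addition, and moved the median over all genes from -0.01 to -0.18 (675 called higher and 4094 lower, beside 2453 and 2343). Summed fibroblast markers were 39615 to 40717 in OE sham at T2 and 19348 to 21286 at T3, and their part was not tested. The Ccng1 call was also lost with edgeR (0.0599) and without any 1 of 6 of the 7 libraries (0.0547 to 0.148), all but OE sham T2 replicate 3.

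In WT sham hearts limma called none of the 10 between T3 and T2, beside 0.341% of genes tested, 2 had an unadjusted p under 0.05, and DESeq2 called 1. Cdkn1a was at 616, 448, 423 and 593 at T2 and at 274, 242, 243 and 325 at T3, without overlap. Its change of -0.93 ± 0.22 stood beside -0.92 in OE sham, with a limma adjusted p of 0.0662 and a DESeq2 adjusted p of 0.00402. Over the 10 genes, 2 had no overlap in WT sham, beside 6.46% of all genes, 0 in WT MI, beside 9.30%, and 1 in OE MI, beside 12.5%. In WT MI limma called none of the 10, beside 0.00644%, and 1 had an unadjusted p under 0.05. In OE MI limma called none either, beside 0.283%, 1 had an unadjusted p under 0.05, and DESeq2 called Cdkn1a (-0.82, DESeq2 adjusted p = 0.0323). The limma changes of Cdkn1a there were -0.65 ± 0.24 and -0.76 ± 0.24.

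The 10 genes differed in how far hearts of a group varied. The median coefficient of variation over the 12 groups was 6.91% for Cdkn1b, 7.09% for Mdm2, 7.42% for Bax and 7.84% for Ccng1. It was 8.72% for Sesn1, 13.4% for Cdkn2c, 15.3% for Trp53inp1, 15.98% for Cdkn1c and 18.9% for Phlda3, and highest for Cdkn1a at 24.1%. Cdkn1a ranged from 228 to 5767 normalized counts over the 45 libraries, and Mdm2 from 717 to 1268. Over the 12 comparisons of OE with WT or MI with sham at 1 time, Ccng1 was called lower in 4, all of OE with WT, and Sesn1 lower in 5. Phlda3 was called higher in 4, 2 of each kind, and Bax higher in 2, both of OE with WT at T1. Cdkn1c was called lower in 2, both of OE with WT, and Mdm2 lower in 1. Cdkn1a, Cdkn2c and Trp53inp1 were each called higher in 1, and Cdkn1b was called in none of the 12 by limma. These comparisons share groups, and between 0.00650% and 47.3% of genes tested were called, depending on the comparison. The share of all genes called as often is not given, so the tallies only describe the 10.

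The genes whose pattern lay nearest were taken by the root mean square difference over 9 log2 differences from WT sham of the same time, among 15030 genes. For Cdkn1a, whose own size on this measure was 1.03, these were Col5a3 (0.256), Shcbp1 (0.257) and Anxa2 (0.283). For Phlda3 (0.839) they were Dap (0.150), Tenm3 (0.159) and Robo1 (0.161), and for Ccng1 (0.618) Tmem94 (0.080), Echdc3 (0.092) and Slc5a6 (0.092). For Sesn1 (0.440) they were Spock2 (0.111), Foxo3 (0.120) and Glul (0.131), for Cdkn1c (0.497) Pitpnc1 (0.053), Epm2a (0.085) and Hhatl (0.093), and for Trp53inp1 (0.516) Cebpd (0.152), Dpt (0.167) and Heph (0.175). For Bax (0.296) they were Ctsb (0.050), Sdcbp (0.062) and Arf6 (0.063). For Cdkn2c (0.321) they were Ccdc157 (0.070), Afap1 (0.090) and Csgalnact2 (0.092). Cdkn1b (0.160) and Mdm2 (0.153) had the smallest patterns of the 10 on this measure, and their nearest genes were Dgka (0.060), Clk4 (0.069) and Sirt1 (0.072), and Sympk (0.049), Wrnip1 (0.051) and Exosc3 (0.055). These are measures of likeness in group means, given as a description.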

How the data were processed

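Each library held polyadenylated RNA of 1 heart. The authors' processing used cutadapt, STAR, HTSeq and DESeq2 on build GRCm38, per the submitters' processing notes; no source used here gives versions, order or strandedness. The deposited tables give, per the file headers, normalized counts, which are a signal (read counts divided by the size factor of the library) rounded to 2 decimals. They also hold the authors' deposited log2 fold changes, p-values adjusted in their model and a score, the largest read count among the compared libraries; the authors' limits for listing a gene were 0.05 for the adjusted p, 1.5 for the fold and 30 for the score. Values were whole reads for 100% of entries within 0.1 reads, so reads and depth were recovered.

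Groups were taken from the labels. The planned test assumed read counts; because the tables are normalized, limma 3.58.1 in R 4.3.3 (trend and robust) was run on log2(normalized count + 1) with 1 mean per group, and the model held every group of its table. Genes at 10 or more in at least 4 libraries of the first experiment, or 3 of the second, were tested. P-values were adjusted by Benjamini-Hochberg over all genes tested in each of 21 planned comparisons and 4 added after the values were seen. Reads of both experiments were scaled together by median ratios to compare T1 with later times. The alternatives were edgeR 4.0.16 and DESeq2 1.42.0 on recovered reads, library totals, TMM, other pseudocounts and minimum values, only the compared groups, a replicate block and leaving out each library. The lowest chi-square per gene between 2 libraries of a group was 4.41 over 63 pairs, so no library was counted as a repeat.

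Named genes were the 10 genes in full and, per pathway list, up to 3 called genes with the smallest p in OE against WT at T1 and MI against sham in WT hearts, and the 3 genes of nearest pattern; the members and lists were chosen with earlier results of these data known. The lists cover p53 regulators, p53 targets of arrest and repair, p53 targets of cell death, other inhibitors, cyclins and CDKs, and cell type markers. Marker lists were those of cardiomyocytes, fibroblasts, macrophages, endothelial, mural and erythroid cells, lymphocytes and neutrophils. Gene spans were read from GENCODE M21 (GRCm38) and promoters from RefSeq.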

Additional observations from a re-analysis of the deposited data

Results flagged for a closer look

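Among 90 groups of 4 libraries examined (the 10 genes in 9 groups), 5 held a library far from the other 3, and chance marks about 1 in 20 groups. Ccng1 was at 17616 normalized counts in WT sham T1 replicate 3, below the others at 20019 to 20458. Trp53inp1 was at 1072 in WT MI T1 replicate 2, above the others at 341 to 443. Bax was at 303 in WT sham T1 replicate 3, above 264 to 269, at 364 in OE sham T1 replicate 4, below 445 to 455, and at 216 in WT sham T3 replicate 2, below 238 to 239.

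The difference in the OE effect between times passed limma for these genes, on the log2 scale. Differences from T1 cannot be told apart from a difference between the experiments. Some calls were lost when 1 library was left out, among them those of Cdkn1a and Cdkn1b, as given above. From T2 to T3 in sham hearts it was -0.38 for Cdkn1b and -1.10 for Phlda3. From T1 to T2 in sham hearts it was -1.81 for Cdkn1a, 0.39 for Cdkn1b, 0.97 for Cdkn1c, 0.76 for Ccng1, -0.92 for Phlda3 and -0.69 for Bax. From T1 to T2 in injured hearts it was 0.47 for Cdkn1b, 1.03 for Cdkn1c, 0.66 for Ccng1 and -1.28 for Phlda3. From T1 to T3 in sham hearts it was -1.80 for Cdkn1a, 1.03 for Cdkn1c, 0.97 for Ccng1, -2.03 for Phlda3 and -0.67 for Bax. From T1 to T3 in injured hearts it was 0.92 for Cdkn1c, 0.55 for Ccng1, -1.14 for Phlda3 and -0.40 for Bax.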

How the results depend on the processing

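Of 2500 values of the 10 genes recomputed under other settings, 2439 kept their direction and side of the threshold where called, 20 lost a call and 41 gained one; 26 of these came with library totals. With 1 library left out, 2444 of 2540 did so, 74 lost a call and 22 gained one. No called value turned its direction. The cause of these changes was not tested.

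Counts of called genes moved as follows, in a list that does not hold every move. The share of all genes called under these settings is not listed here. DESeq2 called 2 for MI in WT hearts at T1, 1 in the interaction at T2, and 1 in WT sham and 1 in OE MI hearts for T3 against T2. Library totals called 5 for OE in sham hearts at T2, 1 for OE in injured hearts at T2, 0 for OE in injured hearts at T3, 5 for MI in OE hearts at T3 and 1 in WT sham for T3 against T2. For OE at T1 they added Cdkn1a and Cdkn2c and lost Sesn1 in sham hearts, and added Cdkn2c and Mdm2 in injured hearts. For MI in WT hearts they added Cdkn2c at T2. At T3 they lost Mdm2 and Sesn1, both lower, and added Bax, Phlda3 and Trp53inp1, all higher. In OE sham for T3 against T2 they lost Mdm2 and Ccng1 and added Cdkn2c. Fitting only the compared groups called 5, 1, 3, 0 and 1 for OE in sham hearts at T2, the interaction at T2, OE in sham hearts at T3, OE in injured hearts at T3 and T3 against T2 in WT sham. A minimum value of 50 called 1 in the interaction at T2. With 1 library left out the counts ran from 0 to 1 for MI in WT hearts at T1, OE in injured hearts at T2, the interaction at T2 and OE in sham and in injured hearts at T3. They ran from 0 to 4 for MI in WT and 2 to 5 for MI in OE hearts at T3, from 0 to 2 for the OE effect at T3 against T2 and from 3 to 6 at T2 against T1 in sham hearts.

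Replicate numbers did not pair the samples: same-numbered libraries correlated from -0.387 to 0.318, and no comparison had every pair over 0.1. A replicate block called 4 for MI in WT hearts at T2, 1 in the interaction at T2 and 0 for OE in injured hearts at T3. The share of all genes called with the block is not listed here either.

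Groups of 3 or 4 hearts, the spread of Cdkn1a and the 2 separate experiments limit these comparisons.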

Other observations

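The authors' deposited tables list, at their own limits, 2 of the 10 genes as higher and 3 as lower for OE in sham hearts at T1, and 1 and 2 for OE in injured hearts at T1. Over all 19432 genes they list 1928 as higher and 1923 as lower in the first comparison, and 1058 and 1155 in the second. They list Trp53inp1 as higher after MI in WT hearts at T1 (log2 fold change 0.92, adjusted p = 0.0294 in the authors' deposited table), where limma here did not call it. In that comparison they list 646 genes as higher and 33 as lower. For OE MI against WT sham hearts, a comparison that changes genotype and injury together, the authors' deposited table gives Cdkn1a a log2 fold change of 2.22 at T1 (adjusted p = 0.00324) and 0.63 at T3 (adjusted p = 0.0275). Over all genes 2263 were listed as higher and 1890 as lower there at T1, and 590 and 332 at T3.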
